A study of Rattus norvegicus with 9 samples.

Results

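The genes of fatty acid oxidation and ketone body formation were examined in the livers of 9 male Sprague-Dawley rats, with 1 mRNA sequencing library for each rat. The set held 38 genes that were chosen by symbol from the 32883 genes of the deposited table, and all 38 were measured with enough reads to be tested in each of 3 comparisons. The normal control group (rats N1, N3 and N12) received a normal diet. The DEN model group (M13, M17 and M24) received diethylnitrosamine (DEN), a liver carcinogen, as weekly intraperitoneal injections of a 0.01% preparation over a schedule of 16 weeks. The PZH administration group (G27, G28 and G42) received the same DEN injections together with Pien-Tze-Huang (PZH), a Chinese patent medicine. The deposited labels tag both M and G rats with PZH, and rats were therefore grouped by the first letter of their names, in keeping with the study's methods, which list 3 rats of each kind. The methods describe a low-dose and a high-dose PZH group. Which dose each sequenced G rat received, and the week in which each rat was killed, are not given in the sources used here. The PZH administration group may therefore mix doses. According to the methods, rats were killed at several weeks of the schedule and were fasted beforehand.

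Fatty acid oxidation shortens activated fatty acids step by step to acetyl-CoA. Long-chain fatty acids are joined to coenzyme A, carried into mitochondria as carnitine esters and cut there by a cycle of dehydrogenation, hydration, dehydrogenation and thiolysis, while very long and branched chains are first shortened in peroxisomes. In the fasted liver the acetyl-CoA is turned into ketone bodies that feed other organs, and the nuclear receptor PPAR alpha is the known activator of many genes of the route.

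The upstream sequences of 4 of the genes are given to show the letters before the start of strongly and weakly changed members. Crot, Ehhadh and Acsl1 were taken because they passed the study's thresholds both in DEN model rats (log2 fold changes against normal control of -3.58, -3.10 and -3.02) and after PZH, and Etfa because its value in DEN model rats was the nearest to 0 (-0.65). The choice was made after their values were seen, and Acsm5, which passed the same thresholds, is not shown. Each line gives the 250 bases before the RefSeq start of the gene, 5′ to 3′ on the strand of the gene in the GRCr8 assembly, with every CCAAT and GGGCGG, on either strand, in capitals.
Crot: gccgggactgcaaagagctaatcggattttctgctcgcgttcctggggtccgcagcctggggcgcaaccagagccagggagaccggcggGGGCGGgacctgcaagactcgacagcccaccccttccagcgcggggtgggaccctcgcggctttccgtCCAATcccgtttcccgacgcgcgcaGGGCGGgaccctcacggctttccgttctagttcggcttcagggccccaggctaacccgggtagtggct
Ehhadh: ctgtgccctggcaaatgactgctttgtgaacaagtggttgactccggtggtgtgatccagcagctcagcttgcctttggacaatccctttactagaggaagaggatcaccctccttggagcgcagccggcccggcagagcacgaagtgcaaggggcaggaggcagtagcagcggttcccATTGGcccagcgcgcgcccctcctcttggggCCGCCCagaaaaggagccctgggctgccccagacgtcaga
Acsl1: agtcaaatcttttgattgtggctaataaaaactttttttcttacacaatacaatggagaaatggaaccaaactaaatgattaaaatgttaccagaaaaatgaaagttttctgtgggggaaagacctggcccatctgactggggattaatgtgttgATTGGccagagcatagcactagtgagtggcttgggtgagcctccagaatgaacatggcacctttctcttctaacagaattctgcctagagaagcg
Etfa: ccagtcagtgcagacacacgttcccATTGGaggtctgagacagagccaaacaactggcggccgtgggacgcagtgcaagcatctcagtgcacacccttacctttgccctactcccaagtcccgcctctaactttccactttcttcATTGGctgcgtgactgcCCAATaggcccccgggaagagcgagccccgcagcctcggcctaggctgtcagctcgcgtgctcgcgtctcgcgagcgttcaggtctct

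These windows lie at chr4:26052874-26053123 on the plus strand for Crot, chr11:92746159-92746408 on the plus strand for Ehhadh, chr16:52532393-52532642 on the minus strand for Acsl1 and chr8:64787966-64788215 on the minus strand for Etfa. Of the 38 genes, 35 had an upstream sequence in the RefSeq table, and Acadl, Acaa2 and Decr1 had none. A GGGCGG, the core of a GC box, stood in 21 of the 35 windows (60%, against 56% of the 11210 windows of tested genes and 30.5% of all 33469 windows). A CCAAT stood in 14 of the 35 (40%, against 34.9% of tested genes and 34% of all windows). The consensus to which PPAR receptors bind, a repeat of AGGTCA with 1 base between the copies, was found in 0 of the 35 and in 0.0357% of tested genes (0.0508% of all windows), and a looser form, with AGGNCA in place of AGGTCA, in 0 of the 35 and in 0.375% of tested genes (0.368% of all). Both strands were searched, and the looser form includes the strict one. The E-box CACGTG was in 1 of the 35 (2.86%, against 7.65% of tested genes and 5.59% of all windows). Hadha and Hadhb, whose products are the subunits of the mitochondrial trifunctional protein, are divergent neighbours on chromosome 6 of GRCr8 with 300 bases between their starts, so their upstream windows share 200 bases.

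Total counts per rat ranged from 14922973 to 27161496, with rat G27 as the deepest library. Levels within a gene are given as CPM, the counts of a library brought to a common depth with edgeR's TMM factors, and levels between genes as the authors' FPKM, which are per transcript length. A gene was called changed at an adjusted p under 0.05 (edgeR's quasi-likelihood test, Benjamini-Hochberg over all tested genes). The study's own thresholds, a log fold change beyond 2 in either direction at a P under 0.001, were applied beside it. The study names neither the base of the logarithm nor an adjustment of P, and they were read here as log2 and unadjusted P. Below, after PZH means in PZH administration rats compared with DEN model rats. Without the TMM factors, that is by library totals, scaling moved the median of all tested genes from 0.03 to 0.89 on the log2 scale in DEN model against normal control rats, and from 0.01 to -0.67 after PZH. Directions are therefore relative to the TMM scaling, and the distance of the members from the median of all genes was -1.73 with TMM and -1.76 with library totals in DEN model rats, and 1.04 and 1.06 after PZH.

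The tissue label was checked on hepatocyte markers, of which 11 of 12 listed were in the file. Their summed level was 187076 to 215370.0 CPM in normal control rats, 42215 to 102234 CPM in DEN model rats and 156604 to 206056 CPM in PZH administration rats, and Alb (albumin) was the most abundant in every group. In the DEN model group 3 of the 11 (Alb, Ttr and Fga) were lower, with a median log2 fold change of -1.46, beside -1.70 for the 38 genes. All 11 had a fitted value below 0 (10 with library totals). For this and the other marker counts in DEN model rats, 20.5% of all tested genes were lower and 25.3% higher. After PZH 1 of the 11 (Ttr) was higher, where 8.72% of all tested genes were, and their median of 1.05 stood beside 1.05 for the 38 genes. Every PZH administration rat was above every DEN model rat in Alb, Ttr and Tf, against 18.4% of all tested genes. All 7 cholangiocyte markers (bile duct cells, Krt19 and Epcam among them) were higher in DEN model rats, their summed level being 30.6 to 43.1 CPM in normal control, 270.2 to 789 CPM in DEN model and 99.9 to 132 CPM in PZH administration rats. Of 10 stellate cell and fibroblast markers, 8 were higher (summed level 278 to 384, 1241 to 3527 and 713 to 836 CPM in the same order). After PZH 7 of the 7 and 6 of the 10 were lower, where 10.3% of all tested genes were. Krt7 was at 0 in N1 and N3 and Lum in N12, and each other marker of these lists had reads in every rat. All 5 proliferation markers and 2 of 4 tested lymphocyte markers were higher in DEN model rats, 3 of 6 macrophage markers were lower, and 5 endothelial markers had 2 higher and 2 lower. With library totals 2 macrophage markers (Cd68 and Csf1r) were higher and 1 (Marco) lower, 4 of 4 lymphocyte markers were higher, and the endothelial markers had 2 higher and 0 lower. In that fit 57% of all tested genes were higher and 6.72% lower. The part of this shift between cell types in the results that follow was not tested, and in these bulk samples fewer hepatocytes and less RNA per hepatocyte cannot be told apart.

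Almost the whole route was lower in DEN model rats. In the DEN model group 36 of the 38 genes were lower than in the normal control group and 0 higher (edgeR's quasi-likelihood test, adjusted p under 0.05), where 20.5% of all 14255 tested genes were lower and 25.3% higher. The 38 genes had a median log2 fold change of -1.70, beside 0.03 over all tested genes, and single genes ran from -3.58 for Crot to -0.65 for Etfa. The DEN model and normal control rats did not overlap in 37 genes, Ppargc1a being the exception, where 27.4% of all tested genes were separated in that direction. The study's thresholds were passed by 13 genes, all lower, against 3.49% of all tested genes. With library totals 26 genes were lower at an adjusted p under 0.05, where 6.72% of all tested genes were lower and 57% higher, 4 passed the study's thresholds, and Etfa turned to a fitted value of 0.22. The 10 calls lost with library totals were those of Acsl5 (-0.49), Slc25a20 (-0.46), Crat (-0.36), Acadl (-0.25), Acads (-0.64), Hadhb (-0.31), Acaa2 (-0.47), Acaa1a (-0.40), Acad11 (-0.11) and Acat1 (-0.36), with adjusted p from 0.087 to 0.7 (edgeR).

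As a share of all counted reads, a scaling by library totals in which abundant genes weigh most, the 38 genes took 1.56 to 1.86% in normal control rats, 0.745 to 0.869% in DEN model rats and 1.04 to 1.30% in PZH administration rats. The highest DEN model rat thus lay below the lowest PZH administration rat, and the highest PZH administration rat below the lowest normal control rat. The median of the 38 genes relative to their normal control means lay at -2.01 to -1.42 on the log2 scale in DEN model rats and at -0.835 to -0.494 in PZH administration rats. Among the DEN model rats, M17 had the highest CPM in 34 of the 38 genes and M24 the lowest in 31. M17 was also the DEN model rat with the most hepatocyte marker RNA (102234 CPM).

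**Figure D1:**
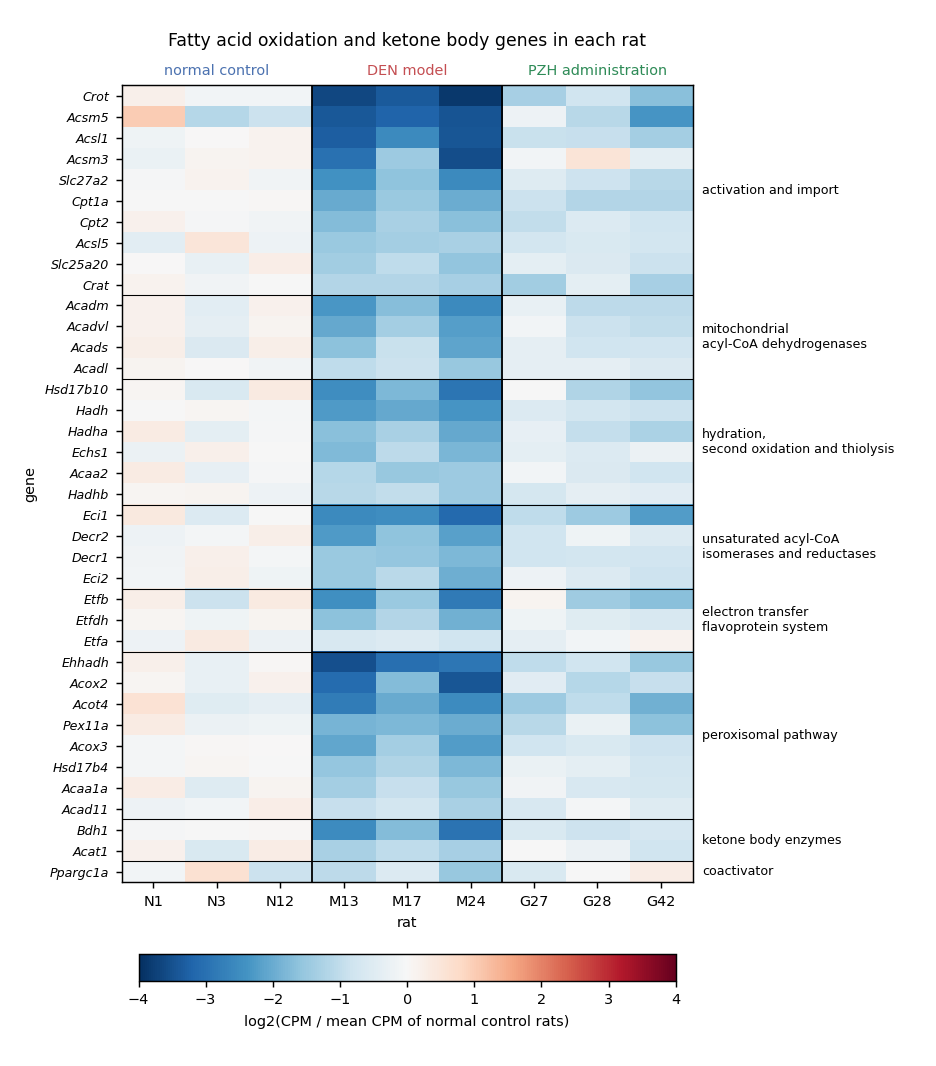
Each row is a gene, grouped by role, and each column a rat, and the colour gives the log2 ratio of CPM to the mean of the 3 normal control rats (blue lower, red higher). The DEN model columns are blue in nearly every row, darkest for Crot, and the PZH administration columns are paler than the DEN model columns in most rows.

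Activation and import genes included the lowest fitted values of the set. All 10 were lower in DEN model rats (median log2 fold change -1.96), and 4 passed the study's thresholds. In what follows, values are listed in the order N1, N3, N12 for normal control, M13, M17, M24 for DEN model and G27, G28, G42 for PZH administration rats. Crot, the peroxisomal carnitine octanoyltransferase that hands shortened chains on to mitochondria, was at 718, 571 and 570.3 CPM in normal control, 49.8, 60.4 and 42.9 CPM in DEN model and 247, 359 and 193 CPM in PZH administration rats. Every DEN model rat was below every other rat, and the PZH administration rats lay between the other groups without overlap. The fall to 8.23% of the normal control mean (log2 fold change -3.58, SE 0.25, adjusted p = 7e-05, edgeR) stood beside a rise after PZH (log2 fold change 2.41, SE 0.28, adjusted p = 0.0075, edgeR). Acsl1, the main long-chain acyl-CoA synthetase of liver, was at 3977, 4523 and 4958 CPM, 461, 761 and 421 CPM and 2395, 2344 and 1737 CPM in the 3 groups. It was also the member with the highest level per length in normal control rats, at 784 ± 95.8 FPKM (SD, n = 3), and its DEN model mean was 12.2% of the normal control mean in CPM (log2 fold change -3.02, SE 0.39, adjusted p = 0.00064, edgeR). After PZH it stood at 48.1% of the normal control mean, higher than in DEN model rats (log2 fold change 2.005, SE 0.34, adjusted p = 0.012, edgeR).

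Acsm5, a medium-chain acyl-CoA synthetase of mitochondria, was at 596, 134 and 163 CPM in normal control rats, with N1 far above the others, at 28.1, 32.1 and 27.3 CPM in DEN model rats and at 259, 139 and 57.9 CPM in PZH administration rats. It fell in DEN model rats (log2 fold change -3.32, SE 0.55, adjusted p = 0.0019, edgeR) and rose after PZH (log2 fold change 2.41, SE 0.48, adjusted p = 0.017, edgeR), with a wide spread in normal control and PZH administration rats. Slc27a2, a transport protein that also activates very long chains, was at 2008, 2283 and 1870.3 CPM, 382, 666 and 349 CPM and 1421, 1152 and 954 CPM. The 3 groups were separated without overlap, with log2 fold changes of -2.12 in DEN model rats and 1.36 after PZH (adjusted p = 0.0018 and 0.028, edgeR). Crat, the carnitine acetyltransferase, was the member of this group with the smallest fall, from 153, 126 and 136 CPM to 61.2, 61.5 and 54.7 CPM (log2 fold change -1.21, adjusted p = 0.00089, edgeR). In PZH administration rats it was at 52.8, 105 and 54.6 CPM, a range that held the DEN model values, so no rise could be called (0.28, adjusted p = 0.5, edgeR), and the fitted sign turned to -0.37 with library totals and to -0.10 without rat G28. Cpt1a, which controls entry of long chains into mitochondria, fell to 28.7% of its normal control mean (log2 fold change -1.79, SE 0.28, adjusted p = 0.0015, edgeR), and its partners Slc25a20, the carnitine carrier, and Cpt2 fell to 40.3% and 33.8%. Acsl5, a further long-chain synthetase, fell to 38.3% and Acsm3, a relative of Acsm5, to 19.2% of the normal control mean (adjusted p = 0.0042 and 0.0048, edgeR).

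The enzymes of the mitochondrial cycle fell by less than Crot or Acsl1. All 4 acyl-CoA dehydrogenases, which differ in the chain length they accept, were lower in DEN model rats. Acadm, for medium chains, was at 836, 552 and 848 CPM, 148, 228 and 128 CPM and 607, 360.5 and 362 CPM in the 3 groups, and its DEN model mean was 22.5% of the normal control mean (log2 fold change -2.13, adjusted p = 0.0011, edgeR). Acadl, for long chains, had the smallest fall of the 4, from 608, 578 and 516 CPM to 282, 312 and 196 CPM (-1.09, adjusted p = 0.0082, edgeR), and was at 441, 445 and 377 CPM in PZH administration rats. No normal control rat overlapped with a DEN model rat in either gene. Acadvl, for very long chains, and Acads, for short chains, had log2 fold changes of -1.80 and -1.43 (adjusted p = 0.0016 and 0.01, edgeR).

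Among the 6 genes of hydration, the oxidation of hydroxyacyl-CoA and thiolysis, all were lower in DEN model rats, with a median log2 fold change of -1.55. Hadh, the short-chain hydroxyacyl-CoA dehydrogenase, was at 384, 414 and 372 CPM in normal control, 82.0, 94.0 and 75.8 CPM in DEN model and 265, 234 and 216 CPM in PZH administration rats, 3 groups that did not overlap. Its log2 fold changes were -2.20 (SE 0.21, adjusted p = 0.00019, edgeR) in DEN model rats and 1.53 (SE 0.20, adjusted p = 0.0086, edgeR) after PZH. Hsd17b10, a dehydrogenase of branched chains that is also a part of mitochondrial RNase P, was at 206, 127 and 247 CPM, 34.6, 55.7 and 25.7 CPM and 193, 84.8 and 64.8 CPM. Rat G27 was inside the normal control range and the other PZH administration rats below it, and the gene had log2 fold changes of -2.30 in DEN model rats and 1.60 after PZH (adjusted p = 0.0013 and 0.044, edgeR). Hadhb, the thiolase subunit of the trifunctional protein, was at 530.2, 535 and 435 CPM, 232, 253 and 181 CPM and 305, 386 and 369 CPM, the smallest fall of this group (-1.15, adjusted p = 0.0046, edgeR). Hadha, its partner subunit, had a log2 fold change of -1.61. Echs1, the short-chain hydratase, and Acaa2, the mitochondrial thiolase, were at 35.5% and 39.2% of their normal control means.

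**Figure D2:**
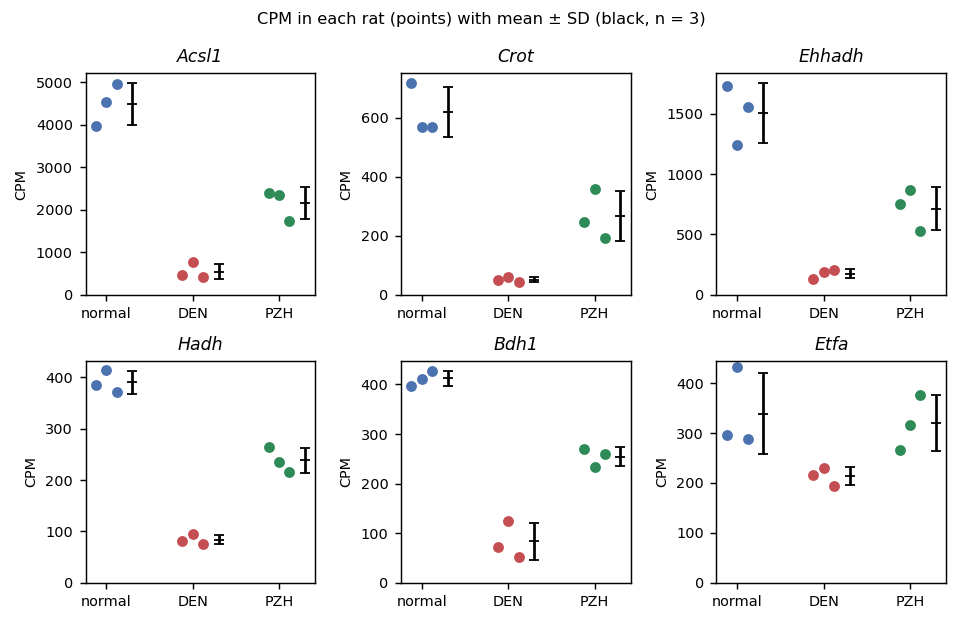
CPM of 6 genes in each rat, with points in the order of rats given in the text, black bars for mean ± SD (n = 3) and each vertical axis starting at 0. In Acsl1, Crot, Ehhadh, Hadh and Bdh1 the 3 groups do not overlap, whereas in Etfa the DEN model rats lie just below the others and the PZH administration rats overlap the normal control rats.

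Unsaturated chains need auxiliary enzymes, and all 4 of their genes were lower in DEN model rats. Eci1, the mitochondrial enoyl-CoA isomerase, was at 807, 419.5 and 609 CPM, 105, 109.7 and 71.6 CPM and 303, 223 and 129 CPM, and its mean fell to 15.6% of normal control (log2 fold change -2.66, adjusted p = 0.00044, edgeR). It rose after PZH (1.23, adjusted p = 0.039, edgeR), yet at 35.7% of the normal control mean it was the lowest of the 38 genes in the PZH administration group. Eci2, an isomerase found in peroxisomes as well, was at 602, 766 and 572 CPM, 233, 306 and 165 CPM and 567, 440.5 and 362 CPM (-1.45 in DEN model rats, adjusted p = 0.0046, edgeR). Decr1 and Decr2, the dienoyl-CoA reductases of mitochondria and of peroxisomes, were at 32.9% and 25.2% of their normal control means.

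Electrons from the acyl-CoA dehydrogenases pass to the electron transfer flavoprotein, whose subunits are encoded by Etfa and Etfb, and from it to Etfdh. Etfb was at 189.5, 89.5 and 206 CPM, 29.7, 57.7 and 22.6 CPM and 174, 59.9 and 50.2 CPM, and it was lower in DEN model rats (log2 fold change -2.12, SE 0.42, adjusted p = 0.0041, edgeR). Etfa was at 295, 432 and 288 CPM, 217, 229 and 194 CPM and 266, 317 and 377 CPM, and with a log2 fold change of -0.65 (SE 0.24) it missed the threshold (adjusted p = 0.053, edgeR), and it was at 0.22 with library totals. Whether the subunits differed in response was not tested, and in FPKM, which carries no TMM factors, Etfa was at 193 ± 35.7 in normal control and 224 ± 16.4 in DEN model rats while Etfb was at 139.6 ± 59.0 and 55.0 ± 19.8 (SD, n = 3). Rat N3 had the highest Etfa and the lowest Etfb of the normal control rats. Etfdh fell to 34.2% of the normal control mean (-1.53, adjusted p = 0.0018, edgeR).

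In the peroxisomal group all 8 genes were lower in DEN model rats, 3 of them past the study's thresholds (Ehhadh, Acox2 and Acot4). Ehhadh, the peroxisomal bifunctional enzyme and a classical PPAR alpha target, was at 1727, 1240.4 and 1555 CPM in normal control, 132, 187 and 202 CPM in DEN model and 749, 871 and 525 CPM in PZH administration rats. The groups did not overlap, and the fall to 11.5% of the normal control mean (log2 fold change -3.10, SE 0.31, adjusted p = 0.00023, edgeR) stood beside a rise after PZH to 47.4% of it (log2 fold change 2.07, SE 0.29, adjusted p = 0.0092, edgeR). Acox2, the oxidase of branched chains and bile acid precursors, was at 531, 411 and 574 CPM, 59.2, 152 and 47.5 CPM and 368, 229 and 264 CPM. Rat M17 had well above the level of M13 and M24, and the log2 fold changes were -2.53 in DEN model rats and 1.76 after PZH (adjusted p = 0.0025 and 0.031, edgeR). Acot4, a peroxisomal thioesterase with close relatives that may share reads, was at 194, 93.6 and 101 CPM, 18.8, 32.1 and 22.8 CPM and 47.5, 64.0 and 34.5 CPM (-2.37, adjusted p = 0.00082, edgeR).

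Acad11, an acyl-CoA dehydrogenase assigned to peroxisomes and mitochondria, had the smallest change of this group, with 477, 501 and 657 CPM, 290.0, 325 and 223 CPM and 351, 511 and 384 CPM. Its call in DEN model rats (-0.95, adjusted p = 0.016, edgeR) was kept in 3 of the 6 fits that left out 1 rat. The remaining members, Acox3 for branched chains, Hsd17b4 for the later steps of the branched-chain route, the thiolase Acaa1a and the peroxisome division factor Pex11a, were at 27.8%, 35.3%, 42.4% and 27.1% of their normal control means, and all 4 were lower. Acaa1a has a near-identical relative, so its counts are uncertain.

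Both enzymes of ketone body metabolism in the set were lower in DEN model rats. Bdh1, which interconverts acetoacetate and hydroxybutyrate, was at 397, 412 and 428 CPM, 72.6, 125 and 52.7 CPM and 270.0, 233 and 260.3 CPM in the 3 groups, which did not overlap. It was at 20.2% of the normal control mean in DEN model rats (log2 fold change -2.29, SE 0.33, adjusted p = 0.001, edgeR) and at 61.8% in PZH administration rats (1.63 against the DEN model group, adjusted p = 0.016, edgeR). Acat1, the mitochondrial acetoacetyl-CoA thiolase, was at 307, 176 and 330.2 CPM, 111, 133 and 108 CPM and 271, 232 and 156 CPM, with a log2 fold change of -1.19 in DEN model rats and 0.93 after PZH (adjusted p = 0.0073 and 0.037, edgeR). Ppargc1a, a coactivator of PPAR alpha and other receptors, was the member with the fewest reads, at 7.34, 12.0 and 4.35 CPM, 3.78, 5.45 and 2.75 CPM and 5.16, 7.86 and 9.69 CPM. Its groups overlapped, and no change could be called (-0.97, SE 0.42, adjusted p = 0.087 in DEN model rats and 0.94, adjusted p = 0.093 after PZH, edgeR).

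PZH administration rats had more of this RNA than DEN model rats. Of the 38 genes 23 were higher and 0 lower (edgeR's quasi-likelihood test, adjusted p under 0.05), where 8.72% of all 14272 tested genes were higher, and the fitted value was above 0 in all 38 with TMM and in 35 with library totals (Crat, Etfa and Acad11 turned). The median log2 fold change was 1.05, beside 0.01 over all tested genes. Every PZH administration rat was above every DEN model rat in 35 genes, Crat, Etfb and Ppargc1a being the exceptions, against 18.4% of all tested genes. The study's thresholds were passed by 4 genes, Crot, Acsm5, Ehhadh and Acsl1 (1.08% of all tested genes). The background for a lower call was 10.3%. By role, 7 of 10 activation and import genes, 2 of 4 acyl-CoA dehydrogenases, 3 of 6 genes of the later mitochondrial steps, 3 of 4 auxiliary enzymes, 1 of 3 flavoprotein genes, 5 of 8 peroxisomal genes and both ketone body enzymes were higher. The gene with the highest fitted value was Acsm3, at 49.7, 63.7 and 65.6 CPM in normal control, 7.48, 21.7 and 5.08 CPM in DEN model and 55.7, 86.1 and 45.7 CPM in PZH administration rats (log2 fold change 2.48, SE 0.53, adjusted p = 0.02, edgeR). Cpt1a, Hadha and Hadhb were among the 15 genes with no call, at 0.77, 0.86 and 0.69 (adjusted p = 0.069, 0.089 and 0.061, edgeR).

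The number of calls depended on single rats. Leaving out 1 rat kept the median between 0.95 and 1.24, but the number of higher genes went to 3 without M13, 6 without M24, 7 without G28, 15 without G27, 16 without G42 and 31 without M17. Over all tested genes the share called higher moved in the same fits, from 8.72% to 0.822%, 1.91%, 3.42%, 6.96%, 4.2% and 10.9% in that order. Crot, Hadh and Ehhadh were called in all 6 of these fits, with adjusted p no higher than 0.047 (edgeR). DESeq2 called 35 of the 38 higher, beside 12.7% of all tested genes. With library totals 11 were higher (Slc27a2, Acsl1, Acsm3, Acsm5, Crot, Acadm, Hadh, Decr2, Acox2, Ehhadh and Bdh1), where 3.9% of all tested genes were higher and 39.9% lower, and 0 passed the study's thresholds. Among the 12 calls lost with library totals were those of Eci1 (0.55), Hsd17b10 (0.94) and Acat1 (0.26), with adjusted p of 0.15, 0.064 and 0.36 (edgeR).

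**Figure D3:**
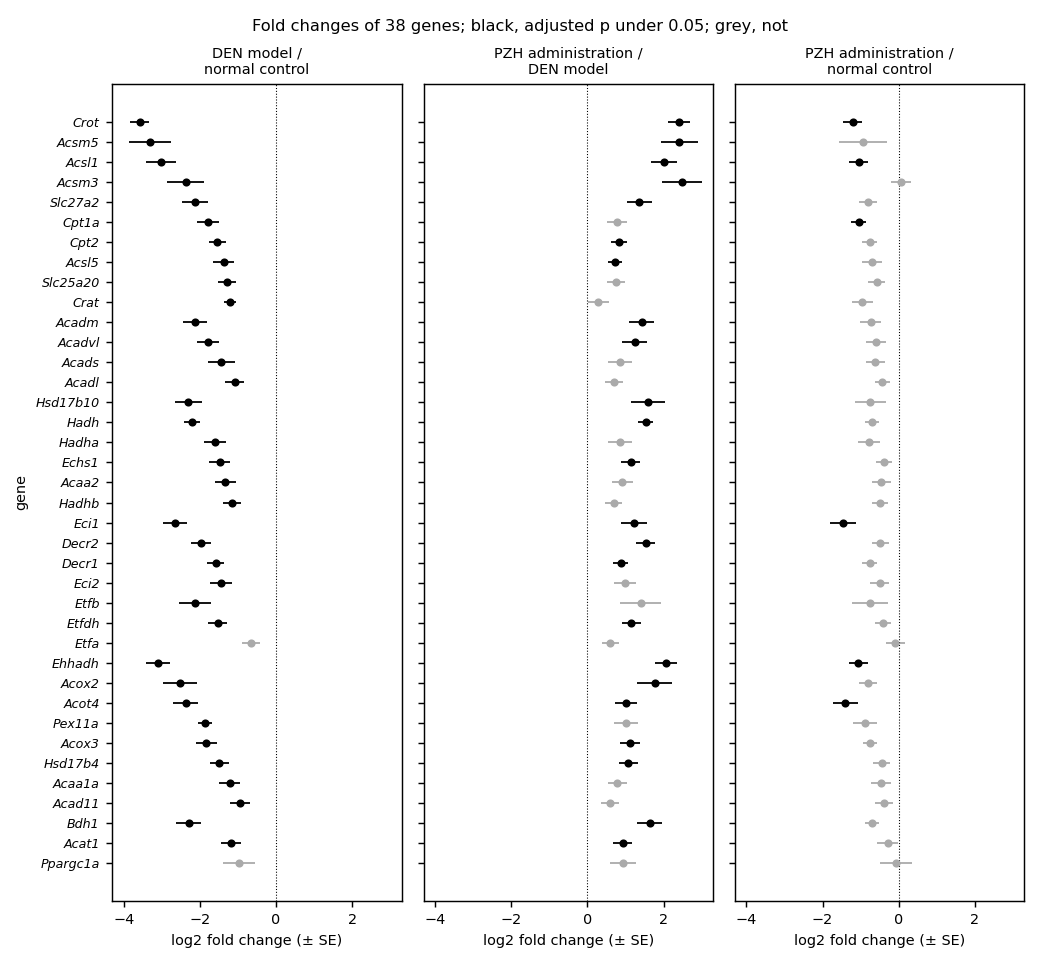
Log2 fold changes (points) with standard errors (bars) of the 38 genes in the 3 comparisons, black where the adjusted p was under 0.05 in edgeR's test and grey where it was not. In the DEN model comparison 36 genes are black and below 0, in the PZH comparison 23 are black and above 0, and against normal control 6 are black and below 0.

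Against the normal control group the PZH administration rats were lower in some genes. This comparison shares its rats with the other comparisons. Of the 38 genes 6 were lower and 0 higher (edgeR's quasi-likelihood test, adjusted p under 0.05), where 1.15% of all 13348 tested genes were lower and 4.07% higher. They were Eci1 (log2 fold change -1.47, adjusted p = 0.042), Acot4 (-1.40, 0.042), Crot (-1.21, 0.031), Ehhadh (-1.07, 0.045), Acsl1 (-1.05, 0.043) and Cpt1a (-1.05, 0.022, edgeR). The rats were separated in 21 genes, all lower, where 10.6% of all tested genes were, and the median log2 fold change was -0.70, beside -0.02 over all tested genes. The study's thresholds were passed by 0 of the 38 (0.165% of all tested genes, lower), while 21 were lower at an unadjusted p under 0.05 in edgeR's test (7.19% of all tested genes) and DESeq2 called 14 lower at an adjusted p under 0.05 (3.18% of all tested genes). The number of lower genes fell to 0 without N1, N12 or G42 and to 2 without N3 or G28, and rose to 15 without G27. The share of all tested genes called lower moved with it, to 0.313%, 0.343%, 0.368%, 0.829%, 0.221% and 3.95% without N1, N12, G42, N3, G28 and G27. With library totals Cpt1a alone of the 38 was called lower. Acsm3 stood at 105% and Etfa at 94.4% of the normal control mean, and neither was called (0.07, SE 0.26 and -0.09, SE 0.25).

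Within the PZH administration group, G27 had the highest CPM in 21 of the 38 genes and G42 the lowest in 23. In G27 the short transcripts Etfb and Hsd17b10 (908 and 931 bases by the authors' FPKM) stood far above G28 and G42. Across 11226 genes above 1 CPM in every rat, the ratio of G27 to the other PZH administration rats ran weakly against transcript length (Spearman's rho -0.19, across genes, which are not independent and share a library), and in the 38 genes rho ran from -0.28 in G27 to 0.44 in G28 over the 9 rats. Over all these genes the same measure was 0.19 in G28 and 0.13 in G42, and it lay between -0.08 and 0.10 in normal control and DEN model rats. Its part in the results was not tested.

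Further genes of the route, listed apart from the 38, also moved, in part. For the counts of this and the following lists, 20.5% of all tested genes were lower and 25.3% higher in DEN model rats. After PZH 8.72% were higher and 10.3% lower. With library totals 6.72% were lower and 57% higher in DEN model rats, and 3.9% were higher and 39.9% lower after PZH. Of 39 other fatty acid oxidation genes that could be tested, 28 were lower and 1 higher in DEN model rats (median log2 fold change -1.30), and 16 were higher and 0 lower after PZH (median 0.87). The study's thresholds were passed in DEN model rats by Hacl1 (-3.10), Amacr (-2.92) and Phyh (-2.82), which serve the peroxisomal breakdown of branched chains, by the isomerase Ech1 (-2.15) and by the thioesterase Acot12 (-2.01). Other members of the same enzyme families gave no call in DEN model rats with TMM, among them Acsl3 (0.50), Acsl4 (-0.73), Slc27a4 (0.15) and Acad9 (0.02), of which Acsl3, Slc27a4 and Acad9 were called higher with library totals. The gene that was higher, Abcd2, a peroxisomal fatty acid transporter, was at 0 in N1 and N12 and at 0.336 CPM in N3, against 0.850, 1.09 and 1.67 CPM in DEN model rats. With library totals 15 of these genes were lower and 6 higher in DEN model rats, and 7 were higher and 2 lower after PZH.

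For ketone bodies, 4 of 9 other genes were lower and 2 higher in DEN model rats. Oxct1, the enzyme with which other tissues use ketone bodies and which normal hepatocytes hardly express, was at 1.87, 3.36 and 2.90 CPM in normal control, 15.4, 9.81 and 22.1 CPM in DEN model and 5.21, 10.3 and 7.05 CPM in PZH administration rats. It rose in DEN model rats (log2 fold change 2.55, SE 0.37, adjusted p = 0.001, edgeR), and its value after PZH was not called (-1.05, adjusted p = 0.073, edgeR). The monocarboxylate carriers Slc16a1 and Slc16a6 had log2 fold changes of -1.05 and 1.69 in DEN model rats (adjusted p = 0.0039 and 0.001, edgeR). With library totals 2 of the 9 were lower and 5 higher in DEN model rats, beside 6.72% and 57% of all tested genes. In that setting Slc16a1 had no call (-0.20), and Oxct1 was lower after PZH (-1.76, adjusted p = 0.012, edgeR).

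In a list of 28 genes made for regulators and targets of PPAR receptors, 21 were lower and 0 higher in DEN model rats (median -1.62), and 14 were higher and 0 lower after PZH (median 1.15). The list also held broader liver transcription factors, so these are not counts of PPAR targets alone. Among them, Hnf4a (-1.64 and 1.11) and Foxo1 (-1.60 and 1.03) were called in both comparisons. Ppara itself was at 96.9, 89.9 and 93.2 CPM in normal control, 25.6, 50.7 and 25.6 CPM in DEN model and 79.1, 80.4 and 75.2 CPM in PZH administration rats. The groups did not overlap, and it fell in DEN model rats (log2 fold change -1.44, SE 0.28, adjusted p = 0.0037, edgeR) and rose after PZH (log2 fold change 1.23, SE 0.28, adjusted p = 0.024, edgeR). With library totals it was at -0.63 (adjusted p = 0.033, edgeR) in DEN model rats and at 0.61 after PZH, which missed the threshold (adjusted p = 0.057, edgeR). Ppard and Pparg, the other receptors of the family, had no call with TMM (0.37 and 0.02 in DEN model rats), whereas with library totals Ppard was higher in DEN model rats (1.26, adjusted p = 0.008, edgeR) and lower after PZH (-1.12, adjusted p = 0.024, edgeR). Past the study's thresholds in DEN model rats were Cyp4a2 (-6.54), Fabp1 (-4.36), Lpin1 (-3.44), Pdk4 (-3.06), Cyp4a1 (-2.99), Cyp4a3 (-2.90), Angptl4 (-2.89) and Creb3l3 (-2.02), all lower, and after PZH Cyp4a2 (5.31), Cyp4a8 (3.18) and Lpin1 (2.36), all higher. The Cyp4a genes are close copies and may share reads. With library totals 14 of these genes were lower and 4 higher in DEN model rats, and 9 were higher and 1 lower after PZH. The shares of all tested genes were 6.72% and 57%, and 3.9% and 39.9%, in the same order.

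The citric acid cycle, which burns the same acetyl-CoA in the same compartment, moved less evenly. Of 15 tested enzymes, 7 were lower and 1 higher in DEN model rats (median -0.59), and 4 were higher after PZH (median 0.49), and none passed the study's thresholds in either comparison. Citrate synthase (Cs) was at 37.2, 33.4 and 34.2 CPM in normal control and 44.1, 43.2 and 44.6 CPM in DEN model rats (0.35, adjusted p = 0.074, edgeR), and was called higher with library totals (1.21), and Idh3a, a subunit of isocitrate dehydrogenase, was higher (log2 fold change 0.82, adjusted p = 0.018, edgeR). The direction of this list depended on the scaling, as did the median of all tested genes. With library totals 1 was lower and 5 higher in DEN model rats (median 0.26). In that fit 6.72% of all tested genes were lower and 57% higher, with a median of 0.89. After PZH 3 were lower and 0 higher with library totals, where 39.9% of all tested genes were lower and 3.9% higher. No test of the difference between this list and the 38 genes was made. Of 14 tested genes in a list of peroxisome biogenesis, 10 were lower and 0 higher in DEN model rats (median -1.16), and 7 were higher after PZH. The list also held Cat, the peroxisomal enzyme catalase, which is not a biogenesis factor and was called in both comparisons (-1.58 and 1.34). With library totals 3 were lower and 2 higher in DEN model rats, beside 6.72% and 57% of all tested genes. In the same setting 1 was higher and 1 lower after PZH, beside 3.9% and 39.9%.

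A list made for fatty acid synthesis, the opposite route, had 4 lower and 3 higher of 12 tested genes in DEN model rats. The list also held genes of triglyceride formation, Dgat2 among them, so these are not counts of fatty acid synthesis alone. The desaturase Scd2 (3.38) and the elongase Elovl6 (3.40) were higher and the acyltransferase Dgat2 (-2.30) lower, past the study's thresholds. After PZH 6 of the 12 were higher, with the desaturase Scd past the thresholds (3.41), and Fasn, the fatty acid synthase, was higher in PZH administration than in normal control rats (0.99, adjusted p = 0.031, edgeR), as was Scd2 (2.13, adjusted p = 0.019, edgeR). With library totals 2 of the 12 were lower and 3 higher in DEN model rats, and after PZH 2 were higher (Scd and Dgat2) and 2 lower (Scd2 and Elovl6). All tested genes had shares of 6.72% and 57%, and 3.9% and 39.9%, in the same order. Among the genes outside the 38, Abcd2, Acad9, Acsl3, Acsl4, Cat, Cs, Fasn, Foxo1, Hnf4a, Idh3a, Ppard, Pparg, Slc16a1, Slc16a6 and Slc27a4 were named after their values were seen.

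**Figure D4:**
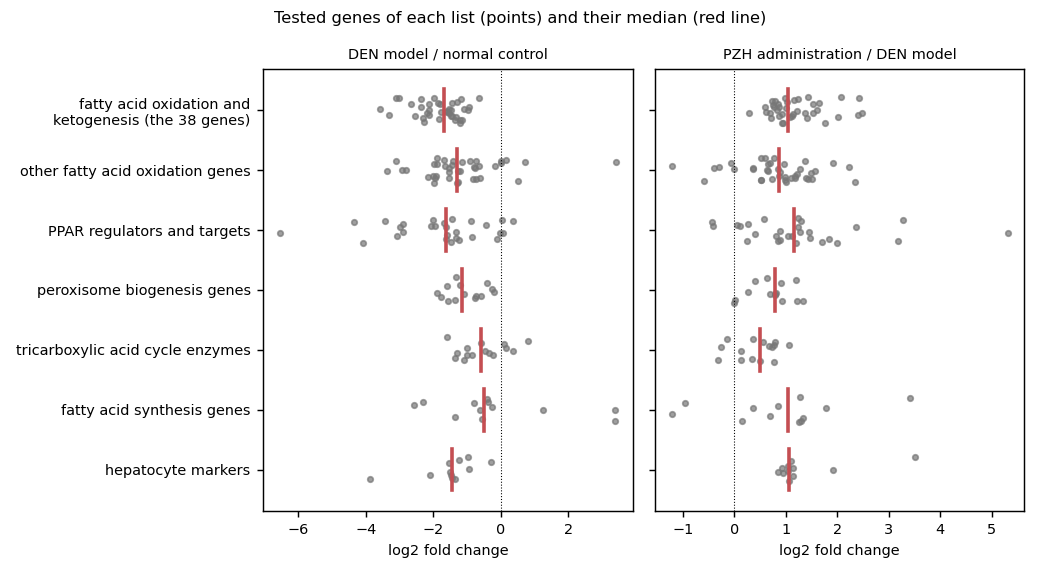
Log2 fold changes of the tested genes of 7 lists (points) with the median of each list (red line), for DEN model against normal control rats and for PZH administration against DEN model rats. In the DEN model panel all 38 points of the top row lie below 0 around a median of -1.70, whereas the citric acid cycle row has points on both sides of 0 around -0.59, and the hepatocyte markers lie around -1.46.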

How the data were processed

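Liver mRNA of 9 rats (1 library each, Illumina NovaSeq 6000) was compared in 3 groups of 3 rats. The authors deposited 1 table with a count column for each rat, whole numbers of reads per gene that were not normalized, and an FPKM column for each rat. The submitters' processing notes name fastp, HISAT2 2.1.0, StringTie 1.3.3b and edgeR 3.30.3 without roles, and the read counter and genome build are not given in the sources used here. The deposited FPKM equalled the count divided by transcript length and library total to within a relative 7.29e-06 over 7423 genes with more than 100 counts in every rat, so it carries no composition scaling. The table's fold change, P-value and Q-value columns hold the authors' own comparisons and were not used.

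Counts were tested in R 4.3.3 with edgeR 4.0.16 (filterByExpr, TMM factors, quasi-likelihood fit and F test), with the 6 rats of a comparison in each fit and no covariates, and p-values were adjusted by Benjamini-Hochberg over all tested genes. Standard errors are the log2 fold change divided by the square root of the test's F. TMM factors were 0.731 to 0.799 in normal control, 1.21 to 1.58 in DEN model and 0.863 to 0.941 in PZH administration rats. A floor of 3 counts equals 0.125 to 0.252 CPM, counting error only, and the lowest member count in any rat was 57 (Ppargc1a). The procedure was run on simulated counts with equal numbers of raised and lowered genes. Those counts had no built-in composition shift like that between these groups, so they do not test the scaling. The alternatives were DESeq2 1.42.0, library totals, no filter, at least 10 counts in every rat, all 9 rats in one fit, limma 3.58.1 on log2(FPKM + 0.1), and leaving out each rat.

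The 38 genes and all lists were chosen with earlier results of these data known. Values in every rat are given for members that passed the study's thresholds in any comparison or had the largest or smallest change of their role in DEN model against normal control, and beyond this rule for Acsm3. Genes of other lists are named where they passed those thresholds, with Ppara in any case. A few genes that this rule names are not reported here. Upstream sequences are from RefSeq (GRCr8), and gene positions of the deposited table were not mixed with them. Protein sequences were not used here.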

Additional observations from a re-analysis of the deposited data

How the results depend on the processing

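No member of the 38 changed direction in DESeq2, without a filter, with at least 10 counts in every rat or with all 9 rats in one fit. DESeq2 gave 35 calls at an adjusted p under 0.05 after PZH and 14 in PZH administration against normal control, and the filter of at least 10 counts in every rat gave 1 in the latter. With library totals and with limma on log2(FPKM + 0.1), neither of which uses TMM factors, the study's thresholds were passed by 4 and 3 genes in DEN model rats and by 0 and 0 after PZH. The calls at an adjusted p under 0.05 were 11 and 11 after PZH and 1 and 1 against normal control. The medians were -0.87 and -0.86 in DEN model rats, 0.39 and 0.38 after PZH, and -0.47 and -0.47 against normal control. In these same settings, in the same order, Etfa turned to 0.22 and 0.23 in DEN model rats, to -0.047 and -0.065 after PZH, and to 0.17 and 0.16 against normal control. After PZH, Crat turned to -0.37 and -0.45 and Acad11 to -0.051 and -0.069, and against normal control Ppargc1a turned to 0.20 and 0.23.

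Leaving out 1 rat gave 35 to 37 calls, 9 to 17 genes past the study's thresholds and medians of -1.87 to -1.55 in DEN model rats. In these fits 13.3% to 21.1% of all tested genes were called lower. Shares of all tested genes past the study's thresholds were taken only for the edgeR fits with TMM and all 6 rats. After PZH, leaving out 1 rat gave 3 calls (without M13) to 31 (without M17), where 0.822% and 10.9% of all tested genes were higher. It gave 1 to 6 genes past the thresholds and medians of 0.95 to 1.24. Against normal control it gave 0 calls (without N1, N12 or G42) to 15 (without G27), and medians of -0.74 to -0.56. Of the genes called with all rats, 35 of 36, 3 of 23 and 0 of 6 were called in every one of these fits. Crat after PZH ran from -0.10 to 0.46, and against normal control Acsm3 ran from -0.23 to 0.25, Acsm5 from -1.58 to 0.015, Etfa from -0.23 to 0.16 and Ppargc1a from -0.38 to 0.39. A group left with 2 rats is assumed to vary like the other group. No paired analysis was possible because the groups share no rat number. With 3 rats in each group, a missed call does not show that a gene was alike in both groups. The causes of these changes were not tested.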
